A study of Mus musculus with 6 samples.

Results

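De novo lipogenesis is the route by which hepatocytes build fatty acids from acetyl-CoA, and 10 genes of this route were examined in mouse primary hepatocytes that had or had not lost FOXA2. They were taken as a pathway list, by their role (Acly, Acaca, Fasn, Elovl6, Scd1, Me1, Srebf1, Mlxipl, Thrsp and Pnpla3), and the rule uses no level or test. The list was, however, chosen with earlier results of these data known. Shares over all genes given beside it therefore describe the list and do not test it. The list holds 10 of the 34745 genes with a count, and all 10 were among the 14417 genes that passed the filter on low counts. Hepatocytes came from 6 male mice of 12 weeks, and each mouse gave 1 paired-end RNA-seq library. All mice were FOXA2f/f, that is, both Foxa2 alleles were flanked by loxP sites, and all received CCl4, a hepatotoxin that causes fibrosis, at 0.25 ml/kg 2 times per week over 4 weeks. The 3 FOXA2f/f+CCl4 mice had received AAV8-TBG-Control and the 3 FOXA2H-KO+CCl4 mice AAV8-TBG-Cre through the tail vein, 2 weeks before CCl4, and all were sacrificed on day 3 after the last injection. The TBG promoter limits Cre to hepatocytes, so that other cells in the preparation keep Foxa2. No mouse without CCl4 was sequenced. Both groups have replicates 1, 2 and 4 in the sample titles, and these numbers are used here.

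In lipogenesis, ATP citrate lyase (Acly) cuts citrate into acetyl-CoA, acetyl-CoA carboxylase (Acaca) makes malonyl-CoA, and fatty acid synthase (Fasn) joins these units into palmitate with NADPH, some of which comes from malic enzyme (Me1). Elovl6 lengthens palmitate and Scd1 introduces a double bond. In liver the pathway is induced by feeding, through SREBP-1c (Srebf1) under insulin and LXR and through ChREBP (Mlxipl) under glucose, and Thrsp and Pnpla3 are targets of the same factors.

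Foxa2 itself had counts of 442, 246 and 516 in the FOXA2f/f libraries 1, 2 and 4 and of 28, 19 and 35 in the FOXA2H-KO libraries, so that every library matched its label. Its log2 fold change was −3.85 ± 0.31 (SE), with an adjusted p of 0.0313 in edgeR's quasi-likelihood test, and it was the only gene called of all genes tested. With each library left out in turn its log2 fold change was between −4.17 and −3.63, and the call held without FOXA2f/f 2 and was lost without any of the 5 others. It was also lost with library size alone, on both FPKM scales and with the replicate block. Library totals lay between 20983455 and 28327765 counts. Albumin took between 9.38% and 11.0% of the counts of a library, and the transcription factor gene Hnf4a of hepatocytes lay between 507 and 615 CPM in all 6, where CPM is the count scaled to the TMM-adjusted size of the library. Markers of other liver cells differed between libraries, and 1 FOXA2f/f library, replicate 2, stood lowest in several of these lists, with values given below.

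The sequences before the start of 4 of the genes are shown because these genes carried the widest spread between libraries or held a motif of a factor named above. They are RefSeq sequences on GRCm38.p6, 250 bases each, written 5′ to 3′ on the strand of the gene and ending at the base before the first transcribed base. Capitals mark CCAAT (or ATTGG on the other strand), GGGCGG (or CCGCCC), the forkhead motif TGTTTAC (or GTAAACA), and a nuclear receptor repeat of the LXR type in which GGGTTA is followed after 5 bases by GGTCA (written on the other strand in both genes that hold it). In Fasn, at chr11:120824548-120824797 on the minus strand, the capitals CCAATTGG are a CCAAT and an ATTGG that overlap.
Fasn: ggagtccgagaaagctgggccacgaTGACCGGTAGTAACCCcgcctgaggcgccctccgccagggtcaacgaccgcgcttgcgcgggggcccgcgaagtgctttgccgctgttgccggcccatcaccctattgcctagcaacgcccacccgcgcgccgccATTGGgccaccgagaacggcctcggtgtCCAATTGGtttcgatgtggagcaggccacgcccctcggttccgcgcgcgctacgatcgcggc
Srebf1: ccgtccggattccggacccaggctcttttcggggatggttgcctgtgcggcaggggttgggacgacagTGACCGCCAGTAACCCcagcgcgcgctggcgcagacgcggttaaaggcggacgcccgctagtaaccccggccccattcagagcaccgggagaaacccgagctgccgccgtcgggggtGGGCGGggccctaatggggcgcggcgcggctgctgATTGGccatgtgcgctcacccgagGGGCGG
Elovl6: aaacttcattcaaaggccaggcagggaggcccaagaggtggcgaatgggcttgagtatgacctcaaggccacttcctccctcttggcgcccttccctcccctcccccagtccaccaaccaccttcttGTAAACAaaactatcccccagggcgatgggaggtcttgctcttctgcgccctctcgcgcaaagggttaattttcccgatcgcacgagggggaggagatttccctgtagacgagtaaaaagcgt
Pnpla3: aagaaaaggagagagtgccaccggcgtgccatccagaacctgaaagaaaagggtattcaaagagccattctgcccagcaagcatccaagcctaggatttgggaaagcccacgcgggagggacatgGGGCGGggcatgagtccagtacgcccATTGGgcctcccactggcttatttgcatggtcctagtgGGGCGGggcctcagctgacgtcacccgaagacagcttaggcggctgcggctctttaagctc
The Srebf1 sequence is at chr11:60210472-60210721 (minus strand), before the innermost of its 3 RefSeq starts. The Elovl6 sequence is at chr3:129532136-129532385 (plus strand) and that of Pnpla3 at chr15:84167566-84167815 (plus strand).

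RefSeq promoters of 300 bases, with 50 bases after the start, were at hand for 9 of the 10 genes (13 promoters). The only one for Acaca, at chr11:84195188-84195487, lay inside the gene, which begins at base 84129672 in GENCODE M21. It held 0 matches and is counted among the 13. A CCAAT box, the motif of NF-Y, which acts beside SREBP, was in 8 of these 13 promoters, against 37.4% of all 32851 promoters. GGGCGG was in 6 of the 13 and in 35.7% of all promoters. The LXR repeat was in only 5 of the 32851 promoters (0.0152%), and those of Fasn (bases −225 to −210 from the start) and Srebf1 (−182 to −167) were among the 5. This motif was added after the promoters had been read, so that its matches in Fasn and Srebf1 were known beforehand and the share of all promoters does not test them. The forkhead motif TGTTTAC, the kind FOXA proteins bind, was in the promoter of Elovl6 only (−123 to −117), against 3.65% of all promoters, and TATTTAC was in none of the 13 and in 3.04% of all. CACGTG, which ChREBP and USF bind, and TCACNCCAC, an SREBP motif, were each found only before Mlxipl, against 7.15% and 1.24% of all promoters. These matches describe letters within 300 bases and are not evidence of binding.

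The 10 genes had lower means in FOXA2H-KO than in FOXA2f/f, and none was called. On the log2 scale the fold changes (FOXA2H-KO minus FOXA2f/f) lay between −2.88 in Pnpla3 and −0.72 in Scd1, with a median of −1.70, where the median of all genes tested was −0.012. A value below 0 was found for 10 of 10 genes, against 52.2% of all genes. Adjusted over all genes tested, no p was under 0.771, so that 0 of 10 were called, against 0.00694% of all genes. The unadjusted p of the quasi-likelihood test was under 0.05 for 8 of the 10, all lower, against 5.17% of all genes in either direction and 3.18% lower. This count was 2 with library size alone, 1 on log2(FPKM + 1) and 2 on log2(FPKM + 0.1). The 3 FOXA2H-KO libraries lay below all 3 FOXA2f/f libraries for 3 of 10 genes (Srebf1, Mlxipl and Pnpla3), against 5.96% of all genes. Much of the difference rested on a single library: FOXA2f/f replicate 2 was the highest of the 6 for 10 of 10 genes, against 29.7% of all genes. Without it the median was −0.31, and 9 of 10 genes were below 0, against 51% of all genes. In bulk RNA, fewer expressing cells and less RNA per cell cannot be told apart.

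**Figure D1:**
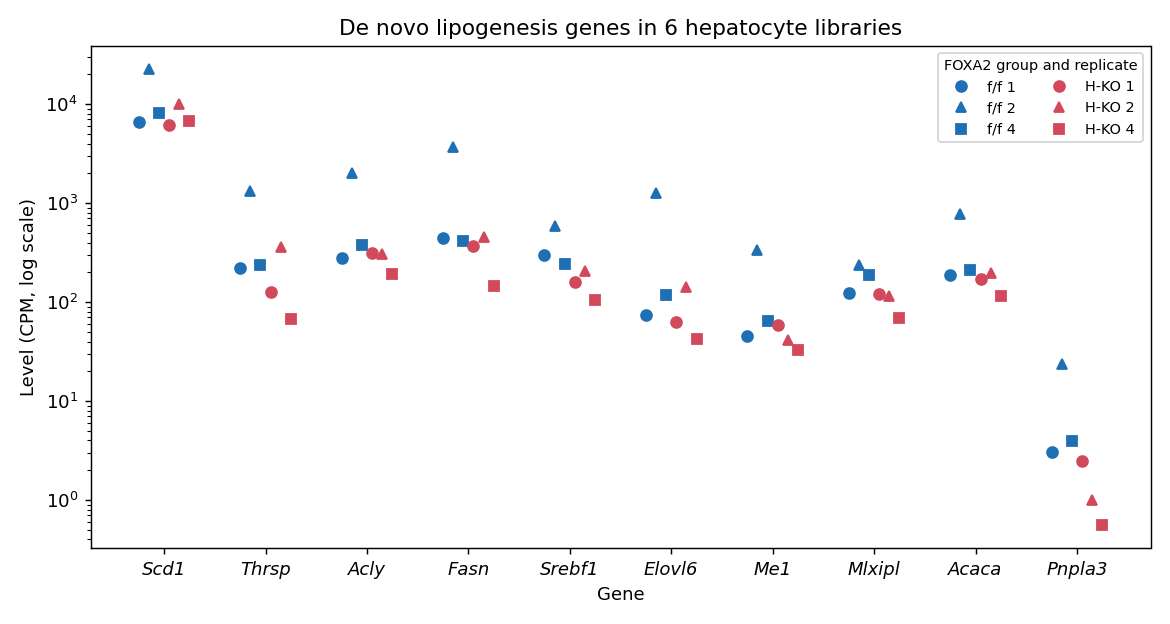
Level of each gene (y axis, CPM on a log scale) in each library, with genes ordered from left to right by mean FPKM, FOXA2f/f in blue and FOXA2H-KO in red, and 1 symbol for each replicate number. The blue triangle, FOXA2f/f replicate 2, is the highest point of all 10 genes, and the red square, FOXA2H-KO replicate 4, is the lowest of 9.

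Acly (chr11:100476353-100528000, minus strand) makes the cytosolic acetyl-CoA with which the route begins. It was at 281, 2004 and 374 CPM in FOXA2f/f libraries 1, 2 and 4 and at 311, 303 and 193 CPM in FOXA2H-KO libraries 1, 2 and 4. The groups overlapped: FOXA2f/f 1 lay below FOXA2H-KO 1 and 2, and FOXA2f/f 2 was 6.11 times the mean of the other two FOXA2f/f libraries. The log2 fold change was −1.72 ± 0.71 (SE), with an unadjusted p of 0.0433 and an adjusted p of 0.941 in edgeR. It was −0.28 ± 0.24 without FOXA2f/f 2.

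Acaca (chr11:84129672-84401651, plus strand), whose product makes malonyl-CoA in the cytosol and sets the pace of the pathway, had 186, 771 and 209 CPM in FOXA2f/f and 169, 198 and 115 CPM in FOXA2H-KO. Apart from FOXA2f/f 2, the levels of the 2 groups were interleaved, since FOXA2H-KO 2 lay between FOXA2f/f 1 and 4. The difference was −1.27 ± 0.54 on the log2 scale (unadjusted p = 0.0488, adjusted p = 0.941 in edgeR) and −0.30 ± 0.23 without FOXA2f/f 2.

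For Fasn (chr11:120805846-120824547, minus strand), the enzyme that assembles palmitate, the 3 FOXA2f/f libraries held 448, 3706 and 417 CPM and the 3 FOXA2H-KO libraries 373, 457 and 147 CPM. FOXA2H-KO 2 exceeded FOXA2f/f 1 and 4, and FOXA2H-KO 4 was far below all others. The SD of the FOXA2f/f libraries (1890 CPM, n = 3) was larger than their mean of 1524 CPM, as for 6 of the 10 genes in FOXA2f/f and 0 of the 10 in FOXA2H-KO. Fasn had a log2 fold change of −2.23 ± 0.90 (unadjusted p = 0.0390, adjusted p = 0.941 in edgeR), which became −0.41 ± 0.41 without FOXA2f/f 2.

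Elovl6 (chr3:129532355-129638495, plus strand) lengthens the palmitate that Fasn releases. Its levels were 73.7, 1276 and 119 CPM in FOXA2f/f and 63.2, 141 and 42.5 CPM in FOXA2H-KO. No other of the 10 genes was raised as much in FOXA2f/f 2, where it was 13.2 times the mean of FOXA2f/f 1 and 4, and FOXA2H-KO 2 was above both of those libraries. The log2 fold change of −2.57 ± 1.06 (unadjusted p = 0.0431, adjusted p = 0.941 in edgeR) shrank to −0.23 ± 0.47 without FOXA2f/f 2.

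Scd1 (chr19:44394455-44407879, minus strand), the stearoyl-CoA desaturase of liver, stood at 6645, 22764 and 8137 CPM in FOXA2f/f and at 6205, 9927 and 6734 CPM in FOXA2H-KO. FOXA2H-KO 2 was the second highest of the 6, and the lowest was FOXA2H-KO 1, so that Scd1 was the single gene not lowest in FOXA2H-KO 4. With a log2 fold change of −0.72 ± 0.51 (unadjusted p = 0.198, adjusted p = 0.983 in edgeR) it differed least between the groups, and it alone turned to the other side of 0, at 0.047 ± 0.32, without FOXA2f/f 2.

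Me1 (chr9:86581371-86695953, minus strand) gives NADPH to the synthase. The FOXA2f/f libraries had 45.3, 338 and 65.0 CPM and the FOXA2H-KO libraries 58.8, 41.0 and 33.0 CPM. Only FOXA2H-KO 1 reached into the range of FOXA2f/f, above FOXA2f/f 1. Me1 differed by −1.75 ± 0.72 on the log2 scale (unadjusted p = 0.0411, adjusted p = 0.941 in edgeR) and −0.32 ± 0.26 without FOXA2f/f 2.

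Among the regulators, Srebf1 (chr11:60199089-60222581, minus strand) encodes SREBP-1c and SREBP-1a, the transcription factors that switch on the enzymes above. It had 302, 591 and 242 CPM in FOXA2f/f and 161, 208 and 104 CPM in FOXA2H-KO. All FOXA2H-KO libraries lay below all FOXA2f/f libraries. The log2 fold change was −1.26 ± 0.38, with an unadjusted p of 0.0114, the lowest of the 10 genes, and an adjusted p of 0.771 in edgeR. The two-sided exact permutation test gave p = 0.1, the smallest that 3 libraries against 3 allow. Without FOXA2f/f 2 it stood at −0.79 ± 0.28 (unadjusted p = 0.0243, adjusted p = 0.740 in edgeR).

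Mlxipl (chr5:135089890-135138382, plus strand), the gene of the glucose-responsive factor ChREBP, varied least across the 6 libraries, over a 3.46-fold range. Its levels were 125, 239 and 189 CPM in FOXA2f/f and 122, 116 and 69.2 CPM in FOXA2H-KO. The groups did not overlap, though FOXA2f/f 1 and FOXA2H-KO 1 lay next to each other. ChREBP mRNA had a log2 fold change of −0.85 ± 0.29 (unadjusted p = 0.0212, adjusted p = 0.836 in edgeR), and −0.61 ± 0.28 without FOXA2f/f 2.

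Thrsp (chr7:97412938-97417730, minus strand), a small lipogenic protein that follows feeding and thyroid hormone, had 221, 1337 and 235 CPM in FOXA2f/f and 128, 361 and 67.6 CPM in FOXA2H-KO. FOXA2H-KO 2 was above FOXA2f/f 1 and 4, while FOXA2H-KO 1 and 4 were below every FOXA2f/f library. The difference for Thrsp was −1.69 ± 0.85 on the log2 scale (unadjusted p = 0.0838, adjusted p = 0.944 in edgeR) and −0.30 ± 0.60 without FOXA2f/f 2.

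Pnpla3 (chr15:84167837-84187236, plus strand) encodes a lipid droplet protein of the patatin family, known as a target of SREBP-1c and ChREBP. It was scarce, at 3.05, 23.8 and 3.91 CPM in FOXA2f/f and 2.50, 1.00 and 0.555 CPM in FOXA2H-KO, the last from 12 counts. All FOXA2H-KO libraries were lower than all FOXA2f/f libraries, and the 6 libraries spanned a 42.9-fold range, the widest of the 10 genes. The log2 fold change of −2.88 ± 0.91 (unadjusted p = 0.0136, adjusted p = 0.791 in edgeR) was −1.34 ± 0.55 without FOXA2f/f 2 (unadjusted p = 0.0439, adjusted p = 0.853). In GENCODE M21, 6.78% of its exon bases also belong to Gm49513 on the same strand, so that a part of its counts is uncertain. For the other 9 genes the share of exon bases under another gene was at most 4.24% (Mlxipl), and counts of antisense partners cannot be told apart, since the kit does not mark strand.

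**Figure D2:**
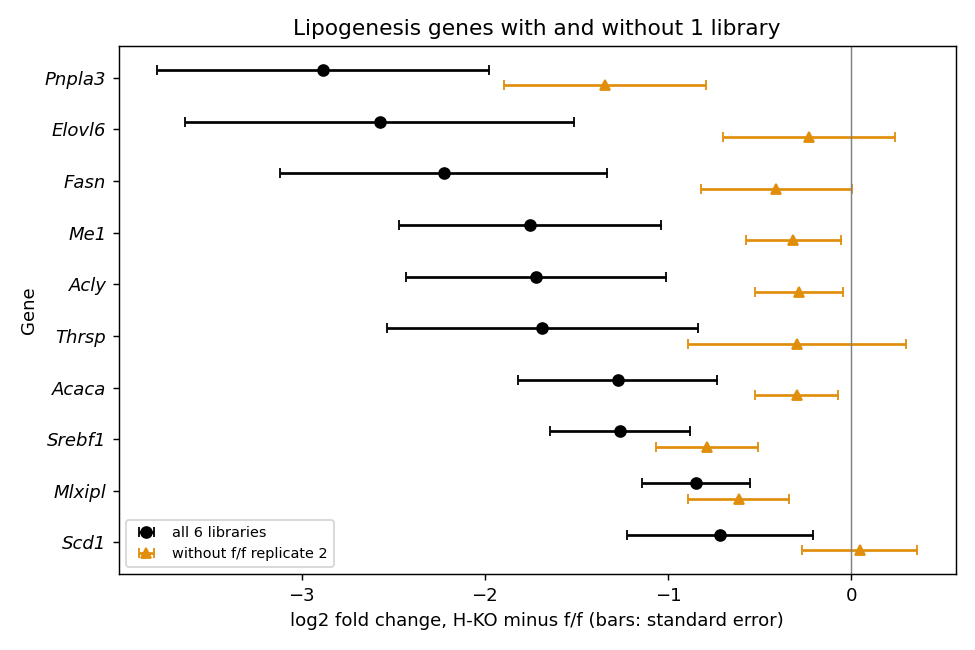
Log2 fold change of each gene (x axis, FOXA2H-KO minus FOXA2f/f, bars show the standard error) in edgeR with all 6 libraries (black circles, 3 against 3) and without FOXA2f/f replicate 2 (orange triangles, 2 against 3). Pnpla3, Srebf1 and Mlxipl stayed furthest below 0 without that library, at −1.34, −0.79 and −0.61, and the 7 others lay between −0.41 and 0.047.

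Without FOXA2f/f 2, 2 of the 10 genes, Srebf1 and Pnpla3, had an unadjusted p under 0.05, against 5.59% of all genes, and none was called. Leaving out each other library gave a median log2 fold change of the 10 genes between −2.09 and −1.39, so that FOXA2f/f 2 was the only library whose removal moved it by over 1.5 times. FOXA2H-KO 4 was the lowest library for 9 of 10 genes, against 13% of all genes, and these 9 were below all 3 FOXA2f/f libraries there. Its level over the mean of FOXA2H-KO 1 and 2 was lowest for Thrsp (0.277), Pnpla3 (0.317) and Fasn (0.354) and nearest to 1 for Scd1 (0.835).

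**Figure D3:**
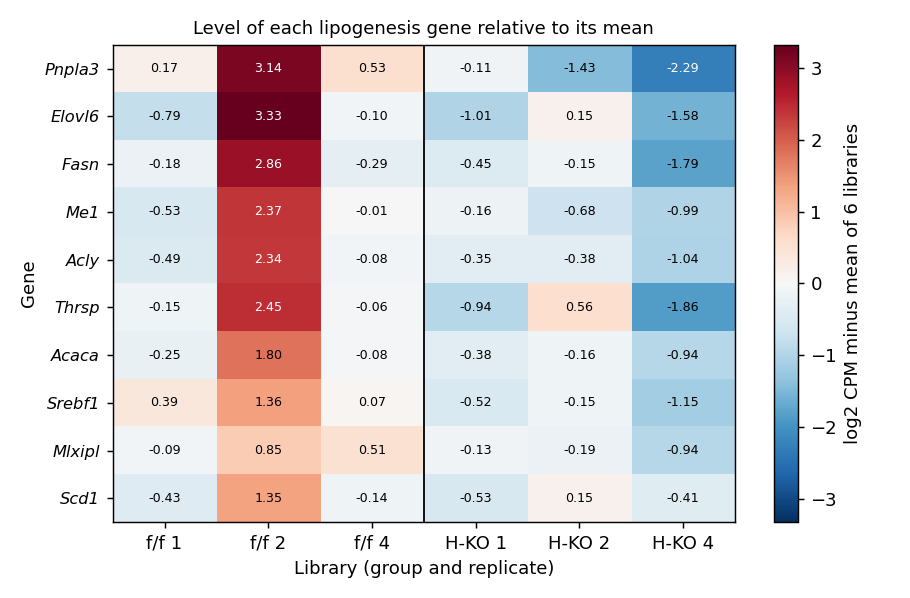
Heat map of each gene (rows) in each library (columns), as log2 CPM minus the mean of that gene over the 6 libraries, with red above and blue below the mean and the value printed in each cell. The column of FOXA2f/f 2 is red for every gene, from 0.85 in Mlxipl to 3.33 in Elovl6, and that of FOXA2H-KO 4 is blue for every gene.

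The transcription factors were raised least in FOXA2f/f 2 and the enzyme Elovl6 most. Relative to FOXA2f/f 1 and 4, FOXA2f/f 2 was 8.57-fold higher for Fasn, 6.84 for Pnpla3, 6.14 for Me1, 6.11 for Acly, 5.86 for Thrsp, 3.90 for Acaca, 3.08 for Scd1, 2.17 for Srebf1 and 1.52 for Mlxipl. The median of the 10 genes was 5.99-fold and that of all genes tested was 1.00. Of the 8295 genes with a mean of at least 10 CPM, 35 (0.422%) were at least 3-fold higher in FOXA2f/f 2 and 160 were at a level of at most 1 in 3. Of the 35 higher genes, 7 were Elovl6, Fasn, Me1, Acly, Thrsp, Acaca and Scd1. A further 6 of the 35 belonged to the neighbouring pathway lists described below, among them Acacb, Pklr, Gpam and Acss2. Another 8 carried names of major urinary protein genes, among them Mup-ps19, named as a pseudogene. Many members of this family are near-identical copies, so that the counts of some are uncertain. Major urinary proteins are made in liver under growth hormone, and these 8 were singled out after their values were seen. The 10 genes took 2.87% of all counts in FOXA2f/f 2, and between 0.745% and 1.20% in the other 5 libraries.

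Levels of different genes were compared as FPKM, which divides by gene length. By mean over the 6 libraries the order was Scd1 (2020 FPKM), Thrsp (137), Acly (66.4), Fasn (61.3), Srebf1 (28.1), Elovl6 (23.6), Me1 (16.3), Mlxipl (16.0), Acaca (13.0) and Pnpla3 (1.16). Scd1 exceeded Thrsp, Thrsp exceeded Acly, and Acaca exceeded Pnpla3 in all 6 libraries. Fasn was above Srebf1 in 4 of 6 libraries and Elovl6 above Me1 in 2, so that these neighbours did not differ beyond their spread. Me1 was above Mlxipl in only 1 of 6 libraries, FOXA2f/f 2, against the order of their means. Mlxipl was above Elovl6 in 5 of 6 libraries, and without FOXA2f/f 2 Elovl6 (8.24 FPKM) came after Mlxipl (14.5), Me1 (9.09) and Acaca (8.95). The length behind the authors' FPKM was longer than the exon length of GENCODE M21 for several genes (11053 against 6431 bases for Elovl6), and the order of close neighbours depends on it.

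Genes that feed the pathway or restrain its supply lay mostly on the same side of 0. FOXA2f/f 2 was the highest library for 16 of the 21 tested, against 29.7% of all genes. Of 21 tested genes for the supply of acetyl-CoA, citrate and NADPH, 18 were below 0, with a median of −0.23 (−0.048 without FOXA2f/f 2), and 1 had an unadjusted p under 0.05, Pdk1, a kinase that holds back pyruvate dehydrogenase (log2 fold change −0.91 ± 0.33, adjusted p = 0.853 in edgeR, and −0.52 without FOXA2f/f 2). Acss2, which makes acetyl-CoA from acetate, was at 202 CPM in FOXA2f/f 2 and between 49.4 and 78.8 CPM in the 5 other libraries. Slc25a1, the citrate carrier of mitochondria, lay lower in all FOXA2H-KO libraries (84.2 to 102 CPM) than in all FOXA2f/f libraries (109 to 173 CPM), with a log2 fold change of −0.48 ± 0.21 (adjusted p = 0.941, and −0.22 without FOXA2f/f 2). Of 5 genes tied to malonyl-CoA beside Acaca, 4 were below 0 and Cpt1a was above it (0.35 ± 0.28). Among the 5, Acsf3 alone had an unadjusted p under 0.05 (−0.52 ± 0.22, and −0.24 without FOXA2f/f 2). Acacb, the mitochondrial form of acetyl-CoA carboxylase, had 23.2, 185 and 68.4 CPM in FOXA2f/f and 44.4, 36.6 and 37.2 CPM in FOXA2H-KO, so that the groups overlapped and FOXA2f/f 2 again stood highest.

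Genes that control SREBP and ChREBP were near the median of all genes. Of 25 tested, 18 were below 0, with a median of −0.091, and 2 lower and 1 higher gene had an unadjusted p under 0.05, where 1.98% of all genes were higher at that p. The lower pair were Insig1, which retains SREBP in the endoplasmic reticulum and is itself an SREBP target (−0.84 ± 0.29, adjusted p = 0.836 in edgeR), and Mid1ip1, the paralogue of Thrsp (−1.05 ± 0.40, adjusted p = 0.914, and −0.60 without FOXA2f/f 2). The partners of the lipogenic factors showed little of the spread of the 10 genes. Nr1h3, the LXR of liver, ranged from 68.4 CPM in FOXA2f/f 2 to 87.6 CPM in FOXA2H-KO 4 (log2 fold change 0.12 ± 0.13). Mlx, the partner of ChREBP, was between 19.8 and 33.4 CPM, and Scap, the escort of SREBP, between 52.1 and 81.8 CPM.

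Of 13 glycolytic genes and ChREBP targets, 12 were below 0, with a median of −0.42 (−0.19 without FOXA2f/f 2), and 2 had an unadjusted p under 0.05, Tm6sf2 (−0.45 ± 0.15) and G6pc (−1.20 ± 0.47). G6pc, which releases glucose, was at 1089 CPM in FOXA2f/f 2 and between 178 and 438 CPM in the 5 others, and its log2 fold change was −0.51 without FOXA2f/f 2. Pklr, the liver pyruvate kinase and a ChREBP target, had 166, 574 and 124 CPM in FOXA2f/f and 105, 203 and 74.1 CPM in FOXA2H-KO, with the same highest and lowest libraries as most of the 10 genes. Among 9 LXR targets outside lipogenesis 4 were below 0. The half-transporters of sterols Abcg5 (−1.01 ± 0.28, adjusted p = 0.689 in edgeR) and Abcg8 (−0.68 ± 0.18, adjusted p = 0.671) were the 2 with an unadjusted p under 0.05, and their groups did not overlap.

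Other elongases and desaturases were divided. Of 11 tested, 8 were below 0 with a median of −0.088. Elovl2, which lengthens polyunsaturated fatty acids, was at 378, 699 and 358 CPM in FOXA2f/f and 283, 272 and 320 CPM in FOXA2H-KO (−0.71 ± 0.27, adjusted p = 0.917 in edgeR, and −0.33 without FOXA2f/f 2). Scd2, a desaturase close to Scd1, went the other way, with 25.7, 55.9 and 41.3 CPM against 228, 117 and 61.4 CPM (1.73 ± 0.48, adjusted p = 0.693, and 1.12 without FOXA2H-KO 1), and its groups did not overlap, against 4.54% of all genes in that direction. Of 13 genes of triglyceride assembly 9 were below 0, with a median of −0.18, and Acsl3, an acyl-CoA synthetase, alone had an unadjusted p under 0.05 (−0.72 ± 0.30, and −0.35 without FOXA2f/f 2). Gpam, the first acyltransferase of glycerolipid synthesis, had 178, 610 and 158 CPM in FOXA2f/f and 159, 134 and 142 CPM in FOXA2H-KO. All 15 genes of cholesterol synthesis, driven by SREBP-2, were below 0, with a median of −0.64 (−0.34 without FOXA2f/f 2), 5 had an unadjusted p under 0.05, and the lowest p was that of Pmvk (−1.10 ± 0.29, adjusted p = 0.650, and −0.70 without FOXA2f/f 2). For these genes the lowest library was mostly FOXA2H-KO 2, with a summed level of 804 CPM, where it was FOXA2H-KO 4 for the lipogenesis genes.

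Lipid droplet coat proteins and lipases stood on the other side of 0 from the 10 lipogenesis genes. Of 13 tested, 0 were below 0, and the median was 0.42 (0.50 without FOXA2f/f 2 and 0.22 without FOXA2H-KO 4). Cidec, which fuses lipid droplets, had 2.75, 2.03 and 0.890 CPM in FOXA2f/f and 3.53, 4.01 and 11.7 CPM in FOXA2H-KO (1.77 ± 0.58, adjusted p = 0.815 in edgeR, and 1.01 without FOXA2H-KO 4). Plin5, a droplet coat protein of oxidative tissue, had 24.9, 44.1 and 50.7 CPM against 55.7, 56.5 and 106 CPM (0.87 ± 0.33, adjusted p = 0.918, and 0.50 without FOXA2H-KO 4). These 2 genes were the ones with an unadjusted p under 0.05, and neither group overlapped with the other. FOXA2H-KO 4 was the highest library for 9 of the 13, against 13.1% of all genes.

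Genes of the fasting response had the same highest library. FOXA2H-KO 4 was highest for 12 of 14 of them, with a summed level of 9836 CPM against 5096 and 6378 CPM in FOXA2H-KO 1 and 2 and 5343 to 7225 CPM in FOXA2f/f. Of the 14, 11 were above 0, with a median of 0.35 (0.072 without FOXA2H-KO 4), and 4 had an unadjusted p under 0.05. Cyp4a10, a target of PPARα, reached 365 CPM in FOXA2H-KO 4 and was between 10.6 and 36.1 CPM in the 5 others, and Acot1 was at 22.2 CPM there and between 4.30 and 10.8 CPM elsewhere. The part of this in the low lipogenesis levels of FOXA2H-KO 4 was not tested.

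**Figure D4:**
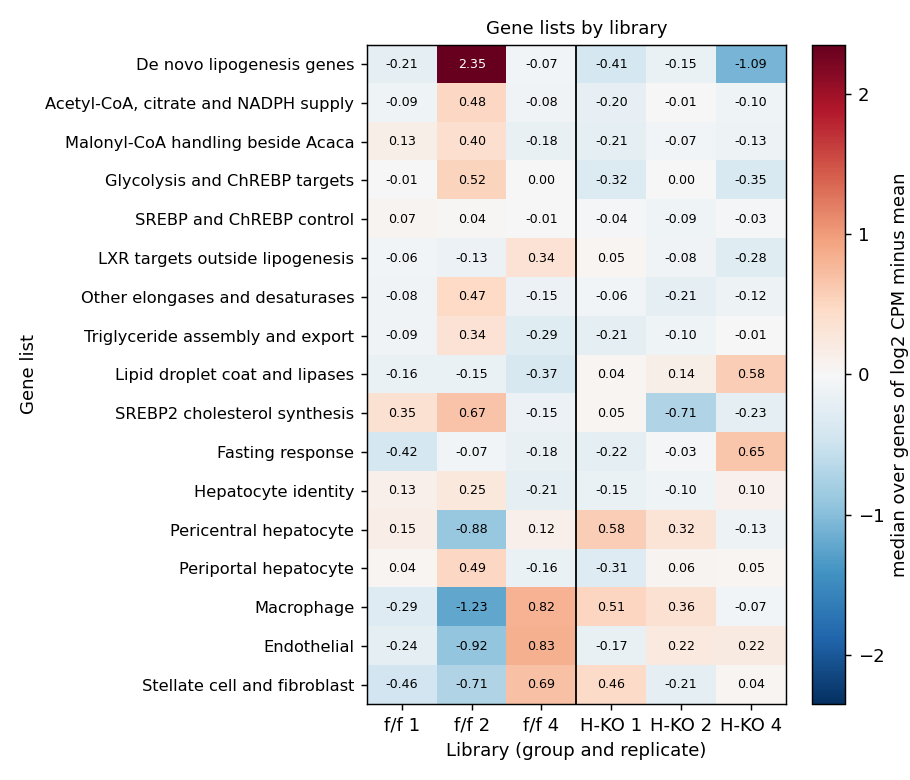
Gene lists (rows) by library (columns), as the median over the tested genes of a list of log2 CPM minus the mean of the gene over the 6 libraries, with red above and blue below. The lipogenesis genes reach 2.35 in FOXA2f/f 2 and −1.09 in FOXA2H-KO 4, where macrophage markers are at −1.23 in the former and fasting genes at 0.65 in the latter.

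Markers of other cells and of liver zones moved with FOXA2f/f 2. It was the lowest library for 12 of 12 macrophage markers, against 29.2% of all genes, with a summed level of 635 CPM there, 1344 and 2910 CPM in FOXA2f/f 1 and 4 and 1406 to 2248 CPM in FOXA2H-KO. The same held for 11 of 12 endothelial markers (372 CPM, against 632 to 1263 CPM in the 5 other libraries), 7 of 12 stellate cell and fibroblast markers (1109 CPM, against 1326 to 2813 CPM), and 7 of 7 neutrophil markers (8.66 CPM). Neutrophil markers also differed between the other libraries, with 83.7 and 62.1 CPM in FOXA2f/f 1 and 4 and 26.2, 30.0 and 19.1 CPM in FOXA2H-KO, a median log2 fold change of −1.94 (−2.44 without FOXA2f/f 2) and an unadjusted p under 0.05, lower, for 4 of 7. None of these 4 lists had a defining marker at 0 in every library. Of 12 pericentral hepatocyte markers FOXA2f/f 2 was lowest for 9, among them Cyp2e1, the enzyme that activates CCl4 (291 CPM, against 1023 to 1685 CPM in the 5 others), and of 13 periportal markers it was highest for 9. Of 14 immediate early genes it was lowest for 12. Summed hepatocyte identity genes were at 191519 CPM in FOXA2f/f 2 and between 131968 and 167677 CPM in the others. Most of this sum was albumin, at 124578 CPM in FOXA2f/f 2 and between 83490 and 113057 CPM in the others. As a share of unscaled counts albumin was highest in FOXA2H-KO 4 (11.0%, against 10.8% in FOXA2f/f 2). Among the identity genes Cyp3a11 was at 457 CPM in FOXA2H-KO 4 and between 4447 and 12090 CPM elsewhere. The part of these differences in the levels of the lipogenesis genes was not tested. Adipocytes also express lipogenesis genes. The 9 adipocyte markers summed to between 18.0 and 47.1 CPM in FOXA2f/f and between 41.6 and 65.6 CPM in FOXA2H-KO, highest in FOXA2H-KO 4. The 3 that were tested, Fabp4, Lipe and Plin4, were above 0, with a median log2 fold change of 0.52. Of the other markers, which had fewer than 10 counts in every library, Lep and Cfd had 0 in all 6, and Adipoq, Retn and Plin1 had at most 2 in any.

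The 5 genes outside the list whose log2 CPM followed the mean z-score of the 10 genes most closely over the 6 libraries, of 8286 candidates with a mean of at least 10 CPM, were Enpep (r = 0.992), Lmf1 (0.992), Abcb10 (0.989), Slc46a1 (0.987) and Os9 (0.987). The 6 points share the high value of FOXA2f/f 2, and the range of the genes was much narrower than that of the lipogenesis genes, 2.37-fold for Enpep and 1.48-fold for Os9.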

How the data were processed

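RNA-seq of primary hepatocytes from 3 FOXA2f/f+CCl4 and 3 FOXA2H-KO+CCl4 mice was analysed, with libraries grouped by their titles and 1 library per mouse, so that p-values measure the spread between these mice. The authors deposited, for 34745 genes, whole-number fragment counts and FPKM values, the latter being counts per total count and gene length. The submitters' processing notes name CASAVA 1.8, TopHat2 2.1.0, HTSeq, edgeR and mm10, and the annotation is not given in the sources used here. Counts were tested with edgeR 4.0.16 in R 4.3.3 (TMM, filterByExpr, quasi-likelihood test, no replicate block), and genes with a fold change of at least 2 and an adjusted p (Benjamini-Hochberg) under 0.05 were called. Single genes were also compared by exact permutation tests, whose smallest p is 0.1. Adjusted p-values are over all 14417 genes tested. Replicates of a group differed far beyond sampling noise (chi-square 35.9 to 123 times its degrees of freedom). Genes of few counts, such as Pnpla3 (12 to 434 counts in a library), carry counting error in addition to that spread.

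The 10 genes and the lists of related genes and markers (23 lists in all) were chosen with earlier results of these data known. Named were the 10 genes, Foxa2, up to 2 genes of a list with the smallest p, listed genes with a role for one of the 10, and the 5 genes most like them. Cyp2e1, Cyp3a11, Hnf4a, the genes at least 3-fold higher in 1 library and the adipocyte markers were named after their values were seen. Gene positions and overlaps are from GENCODE M21 (GRCm38), promoters from RefSeq (GRCm38.p6). Alternatives were DESeq2 1.42.0, library size alone, upper quartile scaling, edgeR's exact test, other filters on low counts, limma 3.58.1 on log2(FPKM + 1) and log2(FPKM + 0.1), a replicate block, other thresholds and each library left out in turn. The tests were checked on simulated counts, where the quasi-likelihood test called 187 of 200 changed genes and 12 unchanged ones. These counts were drawn for each gene separately, without a library in which many genes shift together. The check therefore does not cover a library such as FOXA2f/f 2. One gene that the naming rule gives is not reported here.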

Additional observations from a re-analysis of the deposited data

How the results depend on the processing

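The 10 lipogenesis genes were below 0 in every setting except without FOXA2f/f replicate 2, where Scd1 turned to 0.047 (its log2 fold change was between −1.0 and 0.047 with each library left out in turn), and 0 of them were called in any setting. Their median log2 fold change was between −2.09 and −0.31 with each library left out in turn, the latter without FOXA2f/f replicate 2, and was −1.03 on log2(FPKM + 1) and −1.08 on log2(FPKM + 0.1) (Pnpla3 was at −0.98 on the former). In every setting except without FOXA2f/f replicate 2 it moved by less than the spread between replicates (1.01 on the log2 scale). That spread itself includes FOXA2f/f 2 and is therefore wide. Library size alone and log2(FPKM + 0.1) shifted the median of all genes to 0.10 and 0.11. With 8 genes at an unadjusted p under 0.05 in the quasi-likelihood test, the count was 5 of the 8 with a p in DESeq2 (which gave none for Fasn and Elovl6), 2 with library size alone, 1 on log2(FPKM + 1), 2 on log2(FPKM + 0.1) and between 2 and 9 with a library left out. The 2 came without FOXA2f/f 2 or without FOXA2H-KO 4, 3 without FOXA2H-KO 1 and 5 without FOXA2H-KO 2. The 9 came without FOXA2f/f 4, where 16.6% of all genes had such a p, against 5.17% in the main test and 2.78% without FOXA2H-KO 4. Of all genes tested, 1 was called in the main test, 75 in DESeq2, 64 in edgeR's exact test, 2 without the filter on low counts, 0 with library size alone, 0 on either FPKM scale, 254 at an unadjusted p with the fold threshold and between 0 and 6 with a library left out. The call of Foxa2 held without FOXA2f/f 2 (adjusted p = 0.0340 in edgeR, 6 genes called) and was lost without any of the 5 other libraries, while its log2 fold change was between −4.17 and −3.63. The cause of these differences was not tested.

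Same-numbered libraries of the 2 groups did not deviate together over all genes (correlations of −0.069, 0.026 and −0.23). Since these deviations are from means of only 3 libraries, the correlations cannot decide whether the numbers pair the samples. With the replicate block 0 genes were called, the median of the lipogenesis genes was −1.20 and 7 had an unadjusted p under 0.05.

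With 3 libraries per group, the exact permutation test cannot go below 0.1.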
